A study of Mus musculus with 24 samples.

Results

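The steroid hormone receptors of the hippocampus are described here through 8 genes of the 36605 counted in the tissue. They were chosen by name, and all 8 were found by symbol. The genes are those of the corticosteroid receptors *Nr3c1* and *Nr3c2*, the estrogen receptors *Esr1* and *Esr2*, the progesterone receptor *Pgr*, the estrogen-related receptors *Esrra* and *Esrrg*, and the membrane estrogen receptor *Gper1*.

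RNA of whole hippocampi of 24 adult mice was sequenced, 6 of each of 4 genotypes with 3 females and 3 males in each. The exact age was not given in the sources used here. The design asked how the hippocampal transcriptome differs when *Egr1*, the gene of an immediate early transcription factor, is lost in cells of the neural lineage, and whether the floxed allele or the Cre transgene alone shifts it. Reads were counted per gene without regard to strand.

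Egr1 wtNes Cre- mice carried neither modification and are called wild type. Egr1 fNes Cre- mice carried *Egr1* alleles flanked by loxP sites, made from a C57BL/6N line, and are called floxed controls. Egr1 wtNes Cre+ mice carried a transgene with Cre recombinase behind the Nestin promoter, from a C57BL/6J line, and are called Nestin-Cre controls. Egr1 fNes Cre+ mice carried both and are called Egr1cKO. The Nestin promoter is active in neural precursors throughout the brain, so the deletion covers neurons, astrocytes and oligodendrocytes and is not restricted to the hippocampus. The Egr1 wt and Egr1 f mice came from separate ranges of mouse numbers, so the floxed allele and whatever else differs between those mouse series cannot be told apart. Total counts per mouse ran from 18025168 to 34955004 with a median of 22743950.5.

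Corticosterone acts in the hippocampus through a receptor with high affinity, the mineralocorticoid receptor, and one with lower affinity, the glucocorticoid receptor, which is filled mainly during stress and at the daily peak of the hormone. Without hormone, most steroid receptors rest with heat shock proteins, and with hormone they bind DNA and recruit coactivators or corepressors. Estrogen-related receptors resemble estrogen receptors in sequence but have no known natural steroid ligand, and they are known as regulators of mitochondrial genes.

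On the GRCm38 genome with the GENCODE M21 annotation, *Nr3c1* (ENSMUSG00000024431) lies on the minus strand at chr18:39410545-39519421 and *Nr3c2* (ENSMUSG00000031618) on the plus strand at chr8:76899442-77245012. *Esr1* (ENSMUSG00000019768) is on the plus strand at chr10:4611593-5005614, *Esr2* (ENSMUSG00000021055) on the minus strand at chr12:76120419-76177259, and *Pgr* (ENSMUSG00000031870) on the plus strand at chr9:8899833-8968611. *Esrra* (ENSMUSG00000024955) is on the minus strand at chr19:6910977-6921813, *Esrrg* (ENSMUSG00000026610) on the plus strand at chr1:187608791-188214885, and *Gper1* (ENSMUSG00000053647) on the plus strand at chr5:139423151-139427800. Exons of *Nr3c2* overlap the antisense noncoding gene Gm10649, and exons of *Esrra* overlap *Trmt112* on the other strand. In libraries without strand, reads of these overlapping genes cannot be told apart.

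The tissue was checked against marker genes. All 12 markers of hippocampal excitatory neurons passed the filter on low counts. Their summed level ran from 2082 to 3096 CPM (counts scaled to library size, with TMM factors), and the most abundant was *Slc17a7*, a vesicular glutamate transporter, at a mean of 1503 CPM. One label calls the cell type endocrine, so pituitary markers were examined as well. Of the 9 found in the count table, 8 had a mean below 1 CPM, and the most abundant, *Tshb*, had a mean of 1.24 CPM. Growth hormone and prolactin transcripts were near 0, at means of 0.0481 and 0.0638 CPM, and the summed pituitary markers ran from 1.00 to 3.99 CPM. The measured tissue therefore carried the markers of hippocampal neurons and hardly any of the pituitary.

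*Egr1* itself checks the genotype labels. Its lowest, median and highest levels were 63.7, 110.1 and 149 CPM in wild type, 47.5, 85.1 and 125 in Nestin-Cre controls, 66.8, 83.3 and 146 in floxed controls, and 4.89, 8.19 and 10.2 in Egr1cKO mice. Every Egr1cKO mouse lay below every other mouse. *Egr1* fell in Egr1cKO against floxed controls (log2FC = -3.56, SE 0.24, edgeR adjusted *p* = 3.67e-10) and against Nestin-Cre controls (log2FC = -3.43, SE 0.24, edgeR adjusted *p* = 8.06e-10). Between Nestin-Cre controls and wild type it was not called, except without a filter on low counts, where log2FC was -0.34 and the adjusted *p* 0.00672, with a range of 0.00672 to 1 over the alternatives. With 1 mouse left out, this log2FC ran from -0.46 without female Nestin-Cre control 1 to -0.19 without male wild type 1.

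A pair of mice stood apart in the markers of neighboring regions. In the male Egr1cKO mouse replicate 3, the 12 hypothalamic and amygdalar markers summed to 110.2 CPM against a median of 19.6 over the 24 mice. Its most abundant marker of that list, *Baiap3*, was at 83.7 CPM against a median of 8.33, and the striatal sum was 239 against 158.5 CPM. The same mouse had the lowest level of *Prox1*, a marker of dentate granule cells, at 58.7 CPM against a median of 133. In the female Nestin-Cre control replicate 1, choroid plexus markers summed to 2845 CPM against a median of 194, with transthyretin (*Ttr*) at 1910.01 CPM, and the excitatory sum was the lowest of all at 2082 CPM. Choroid sums were also high in male Egr1cKO replicate 2 (1618 CPM) and in male floxed controls 3 and 2 (1484 and 1210.2 CPM), while no wild-type mouse exceeded 203 CPM.

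**Figure D1:**
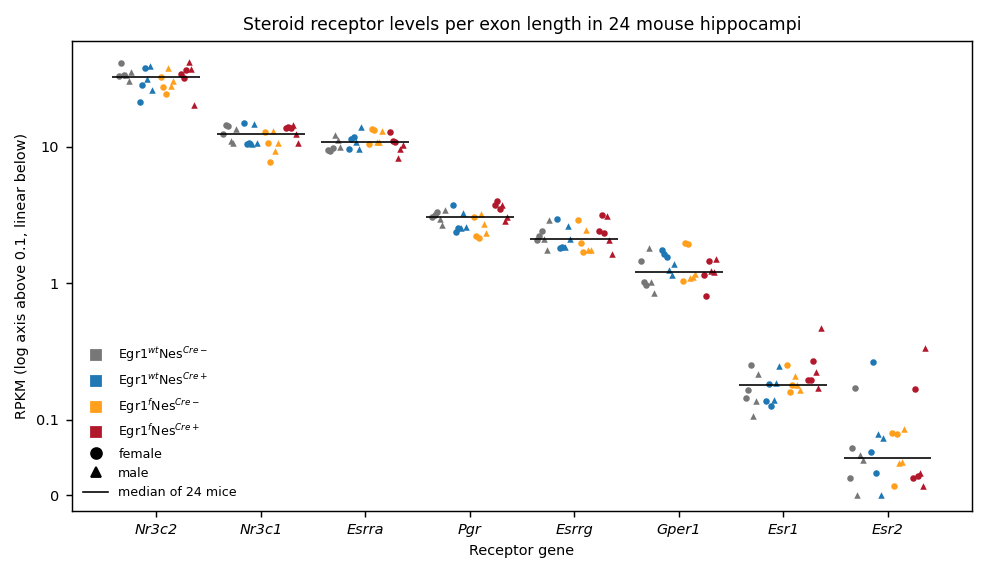
Level of the 8 receptor genes in each of the 24 mice, in CPM per kilobase of exon (RPKM), on an axis that is logarithmic above 0.1 and linear below. Color gives the genotype, circles are females, triangles are males, and the line is the median of 24; means ran from 0.0754 RPKM for Esr2 to 32.3 RPKM for Nr3c2.

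Levels were compared between genes per kilobase of merged exon. The mineralocorticoid receptor gene *Nr3c2* was the most abundant, at 32.3 ± 5.78 RPKM (mean ± SD, n = 24), above 91.0% of the 14825 protein-coding genes that passed the filter. The glucocorticoid receptor gene *Nr3c1* followed at 12.1 ± 1.96 RPKM and *Esrra* at 11.02 ± 1.51 RPKM, both above the median protein-coding gene at 4.97 RPKM. *Pgr* had 3.01 ± 0.527 RPKM and *Esrrg* 2.25 ± 0.483 RPKM, at a level that exceeded 38.2% and 32.2% of protein-coding genes. *Gper1* had 1.31 ± 0.331 RPKM, *Esr1* 0.196 ± 0.0732 RPKM and *Esr2* 0.0754 ± 0.0827 RPKM. The hippocampal samples thus held transcripts of both corticosteroid receptors at far higher density than those of either nuclear estrogen receptor.

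Neighbors in this order were tested within mice by random sign flips of the difference in log2 RPKM, two-sided, with adjustment over the 7 neighbor pairs. The level of *Nr3c2* exceeded that of *Nr3c1* by a mean log2 difference of 1.41 (SD 0.26), in 24 of 24 mice. *Nr3c1* and *Esrra* were not separated, with a mean log2 difference of 0.13 (SD 0.40), *Nr3c1* higher in 14 of 24 mice and a permutation *p* of 0.116, also 0.116 after adjustment. *Esrra* exceeded *Pgr* by 1.88 on the log2 scale in 24 of 24 mice, and *Pgr* exceeded *Esrrg* by 0.43 in 24 of 24. *Esrrg* exceeded *Gper1* by 0.79 in 23 of 24, *Gper1* exceeded *Esr1* by 2.71 in 24 of 24, and *Esr1* exceeded *Esr2* by 1.74 in 23 of 24. The size of these last differences depended on the setting, with 1.64 and 2.81 per kilobase of the longest transcript and 2.25 and 0.84 after adding 0.1 RPKM. For those 6 pairs the permutation *p* was 1e-05, the smallest that 100000 draws can give, and 1.17e-05 after adjustment. The place of *Nr3c1* against *Esrra* depended on the length used: per kilobase of the longest annotated transcript, *Nr3c1* lay below *Esrra* by a log2 difference of -0.43 (adjusted permutation *p* = 4e-05, range over the alternatives 4e-05 to 0.196).

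The balance of the corticosteroid receptors varied among mice. Per length, the ratio of *Nr3c2* to *Nr3c1* had a geometric mean of 2.65 over the 24 mice, 2.74 in wild type, 2.53 in Nestin-Cre controls, 2.84 in floxed controls and 2.50 in Egr1cKO mice. Its range was 1.43 to 3.52, both ends in Nestin-Cre controls. The lowest ratio was in the female Nestin-Cre control with choroid plexus markers, and the Egr1cKO mouse with hypothalamic and amygdalar markers was also low at 1.91.

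Genotypes were compared in a single edgeR fit over the 24 mice with sex as covariate, and a gene was called at FC of at least 1.2 and adjusted *p* of at most 0.05. Of the 8 receptor genes, 7 passed the filter on low counts in that fit, and *Esr2* did not. Between Egr1cKO and floxed controls, edgeR called 0 of the 7 receptors, against 0.0326% (6) of all 18433 genes tested. At an unadjusted *p* under 0.05 lay 2 of the 7 receptors and 16.1% of all genes, and DESeq2 called 0 receptors and 50 genes. Against Nestin-Cre controls edgeR called 0 of 7 receptors and 0.00543% of all genes (1, which was *Egr1*), with 2 receptors and 15.7% of genes at an unadjusted *p* under 0.05, and DESeq2 called 0 receptors and 34 genes. The interaction of floxP and Nestin-Cre, which asks whether Egr1cKO mice differ from the sum of both modifications, gave 0 called receptors and 0.00543% of all genes by edgeR (again *Egr1* alone), with 3 receptors and 19.2% of genes at an unadjusted *p* under 0.05. DESeq2 called 0 receptors and 306 genes for that interaction.

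Neither modification alone gave a called receptor. For Nestin-Cre controls against wild type, edgeR called 0 of 7 receptors and 0% of all genes, with 0 receptors and 6.06% of genes at an unadjusted *p* under 0.05, and DESeq2 called 0 receptors and 8 genes. For floxed controls against wild type, edgeR called 0 of 7 receptors and 0% of all genes, with 3 receptors and 6.97% of genes at an unadjusted *p* under 0.05, and DESeq2 called 0 receptors and 5 genes. The median log2FC of the 7 receptors was 0.23 against floxed controls and 0.14 against Nestin-Cre controls in Egr1cKO mice, where the median of all genes was -0.00 and -0.01. It was -0.03 for Nestin-Cre controls and -0.10 for floxed controls against wild type, with a median of all genes of 0.01 and 0.00. Comparisons that share a genotype share its 6 mice and are not independent.

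These counts moved with single mice and with the filter. Against floxed controls the number of called genes was 33 without male floxed control 1, 22 without male Egr1cKO replicate 3, and 3 without female floxed control 2 or female Egr1cKO replicate 3. Against Nestin-Cre controls it was 972 without male Nestin-Cre control 2, 109 without male Egr1cKO replicate 3, 3 without male Egr1cKO replicate 1 and 2 without male Egr1cKO replicate 2. For the interaction it was 1503 without male Nestin-Cre control 2 and 325 without male floxed control 1. For Nestin-Cre controls against wild type it was 2 without male Nestin-Cre control 2 or female Egr1cKO replicate 1, and 1 without female Nestin-Cre control 2. For floxed controls against wild type, the 3 receptors at an unadjusted *p* under 0.05 became 0 when 1 of 7 mice was left out, floxed female 2 or 3 or male 3, or wild-type female 1, 2 or 3 or male 3. The number of genes at that *p* was 1285, and ran from 754 without male floxed control 3 to 2394 without male floxed control 1. For Nestin-Cre controls against wild type it was 1117, and ran from 837 without female wild type 2 to 2723 without male Nestin-Cre control 2. Against floxed controls it was 2962, and ran from 1929 without female floxed control 2 to 4029 without male Egr1cKO replicate 3. The 2 receptors at that *p* against floxed controls became 4 without female floxed control 1 and 1 without female floxed control 3. Against Nestin-Cre controls the 2 receptors became 1 without female Egr1cKO replicate 2, female Nestin-Cre control 2 or 3, or male Nestin-Cre control 1. For the interaction the 3 receptors became 1 without female floxed control 3, male Egr1cKO replicate 1 or female Nestin-Cre control 2. They also became 1 without wild-type female 2 or male 3, and 4 without male Egr1cKO replicate 3, male wild type 1 or male Nestin-Cre control 2. The only receptor called when 1 mouse was left out was *Pgr*, in the interaction, without male Nestin-Cre control 2. Without both mice that stood apart, an alternative chosen after the data were seen, 81 genes were called against floxed controls and 8 against Nestin-Cre controls, and 0 receptors in either.

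The glucocorticoid receptor gene *Nr3c1* had lowest, median and highest levels of 82.0, 99.9 and 111 CPM in wild type, 80.6, 81.8 and 114 in Nestin-Cre controls, 59.4, 81.4 and 99.6 in floxed controls, and 82.1, 106 and 111 in Egr1cKO mice. Of the Egr1cKO mice, 4 of 6, the 3 females and male replicate 1, lay above every floxed control, while males 2 and 3 lay within the floxed range. The log2FC was 0.30 against floxed controls (FC = 1.23, SE 0.12, unadjusted *p* = 0.0166, edgeR adjusted *p* = 0.246), which did not pass. Floxed controls in turn had a log2FC of -0.25 against wild type (SE 0.12, unadjusted *p* = 0.0454, edgeR adjusted *p* = 0.688). With 1 mouse left out that value ran from -0.32 without male floxed control 1 to -0.16 without female floxed control 3. Against Nestin-Cre controls the log2FC was 0.14 (edgeR adjusted *p* = 0.582), with the Egr1cKO range inside that of the controls, and it was 0.21 without male Nestin-Cre control 2, 0.20 without female Nestin-Cre control 1 and 0.25 without both mice that stood apart. Without a filter on low counts, edgeR called *Nr3c1* against floxed controls at an adjusted *p* of 0.011, where the alternatives ranged from 0.011 to 0.475. The same setting called its interaction at 0.0244, with a range of 0.0244 to 0.342 and 0.210 in the filtered fit.

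*Nr3c2*, the mineralocorticoid receptor gene, had lowest, median and highest levels of 198, 219 and 269 CPM in wild type, 138, 193 and 253 in Nestin-Cre controls, 159, 189 and 246 in floxed controls, and 132, 228 and 273 in Egr1cKO mice. All 4 ranges overlapped, and both mice that stood apart had the lowest levels of all. The log2FC of Egr1cKO was 0.16 against floxed controls (SE 0.14, edgeR adjusted *p* = 0.596) and 0.14 against Nestin-Cre controls (SE 0.14, edgeR adjusted *p* = 0.658). The value against floxed controls was 0.28 without male Egr1cKO replicate 3, 0.08 without male Egr1cKO replicate 1 and 0.27 without both mice that stood apart. Against Nestin-Cre controls it was 0.25 without male Egr1cKO replicate 3, 0.05 without female Nestin-Cre control 1 and 0.16 without both. In bulk tissue, fewer cells of a type and less RNA per cell cannot be told apart.

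**Figure D2:**
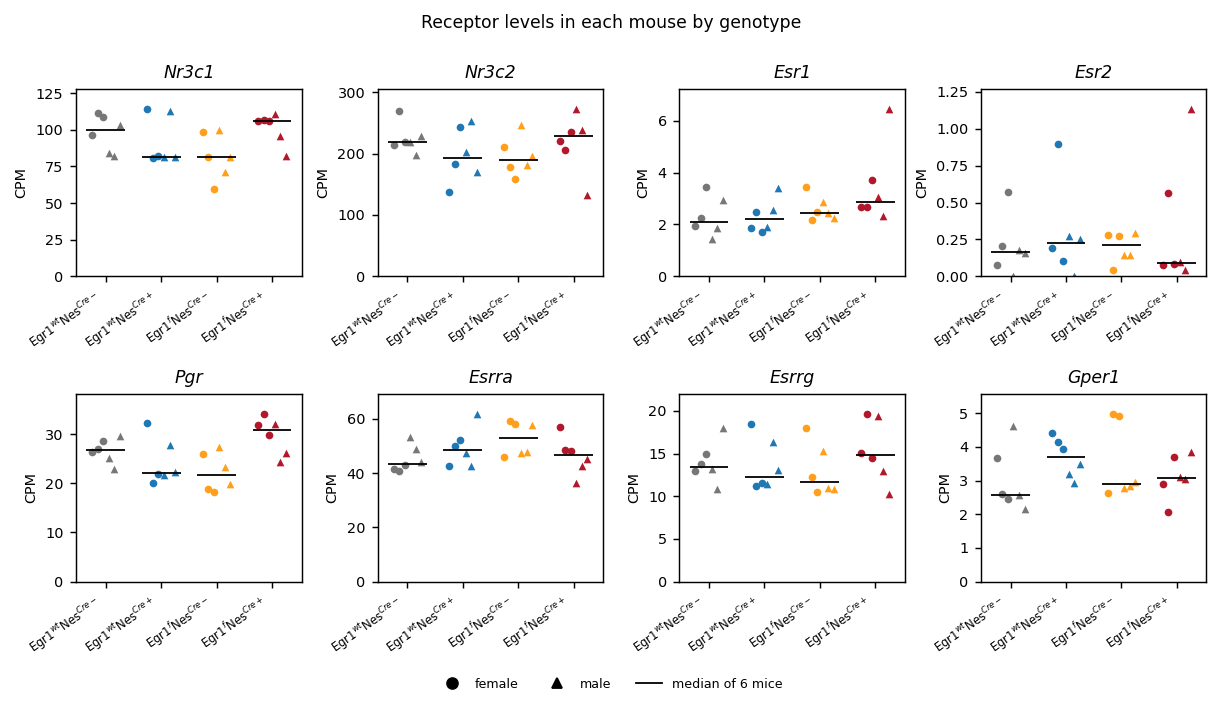
Level of each receptor gene in CPM by genotype, 6 mice in each, with circles for females, triangles for males and a line at the median of 6. The Pgr medians were 26.7, 22.0, 21.6 and 30.9 CPM in wild type, Nestin-Cre controls, floxed controls and Egr1cKO mice.

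Among the sex-steroid receptors, *Pgr*, which encodes the nuclear progesterone receptor, had the lowest unadjusted *p* of the 7 receptor genes tested between genotypes. Its lowest, median and highest levels were 22.8, 26.7 and 29.6 CPM in wild type, 20.1, 22.0 and 32.2 in Nestin-Cre controls, 18.2, 21.6 and 27.4 in floxed controls, and 24.3, 30.9 and 34.1 in Egr1cKO mice. The 3 Egr1cKO females and male replicate 1, at 29.9 to 34.1 CPM, lay above every floxed control, while males 2 and 3, at 24.3 and 26.2 CPM, lay within the floxed range. A Nestin-Cre control, female 1, reached 32.2 CPM, so those groups overlapped as well. The log2FC was 0.41 against floxed controls (FC = 1.33, SE 0.12, unadjusted *p* = 0.0018, edgeR adjusted *p* = 0.217) and 0.29 against Nestin-Cre controls (FC = 1.22, SE 0.12, unadjusted *p* = 0.0214, edgeR adjusted *p* = 0.252). The interaction was 0.54 on the log2 scale (SE 0.17, unadjusted *p* = 0.00336, edgeR adjusted *p* = 0.150), and none of these passed.

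The *Pgr* calls depended on the setting. Without a filter on low counts, edgeR gave an adjusted *p* of 0.00315 against floxed controls, with alternatives from 0.00315 to 0.475, and of 0.00676 for the interaction, with alternatives from 0.00676 to 0.269. Without male Nestin-Cre control 2 the interaction had a log2 value of 0.59 and an adjusted *p* of 0.0333. Floxed controls had a *Pgr* log2FC of -0.25 against wild type (SE 0.12, unadjusted *p* = 0.0442, edgeR adjusted *p* = 0.688), and Nestin-Cre controls one of -0.13, which was -0.22 without female Nestin-Cre control 1 and -0.07 without female Nestin-Cre control 2.

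*Esr1*, the gene of estrogen receptor alpha, was counted at 30 to 165 reads per mouse. Its lowest, median and highest levels were 1.46, 2.10 and 3.44 CPM in wild type, 1.71, 2.19 and 3.401 in Nestin-Cre controls, 2.17, 2.45 and 3.46 in floxed controls, and 2.33, 2.86 and 6.46 in Egr1cKO mice. The highest level was in the male Egr1cKO mouse with hypothalamic and amygdalar markers, and female Egr1cKO replicate 3, at 3.69 CPM, was the only other one above every Nestin-Cre control. The log2FC was 0.58 against Nestin-Cre controls (FC = 1.50, SE 0.25, unadjusted *p* = 0.0252, edgeR adjusted *p* = 0.261) and 0.41 against floxed controls (FC = 1.33, SE 0.24, edgeR adjusted *p* = 0.403). Without that male the log2FC was 0.30 against Nestin-Cre controls, 0.14 against floxed controls and 0.13 for the interaction, which had been 0.42.

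*Esr2*, the gene of estrogen receptor beta, had few reads, with 0 to 29 reads per mouse and 139 reads in all. Its median was 0.168 CPM in wild type, 0.224 in Nestin-Cre controls, 0.21 in floxed controls and 0.0917 in Egr1cKO mice. Male wild type 1 and male Nestin-Cre control 2 had 0 reads, and the highest level, 1.13 CPM, was in the male Egr1cKO mouse that also led in *Esr1*. *Esr2* was not tested between genotypes in the filtered fit.

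Of the estrogen-related receptors, *Esrra* encodes ERR alpha, a regulator of oxidative metabolism. Its lowest, median and highest levels were 40.6, 43.4 and 53.3 CPM in wild type, 42.5, 48.6 and 61.8 in Nestin-Cre controls, 45.9, 52.8 and 59.0 in floxed controls, and 36.4, 46.6 and 56.8 in Egr1cKO mice. The genotypes overlapped, with the lowest level in male Egr1cKO replicate 1 and the highest in male Nestin-Cre control 3. The log2FC was -0.18 for Egr1cKO against floxed controls (SE 0.10, edgeR adjusted *p* = 0.369) and 0.22 for floxed controls against wild type (SE 0.10, unadjusted *p* = 0.0418, edgeR adjusted *p* = 0.688). The Egr1cKO value ran from -0.25 without female Egr1cKO replicate 1 to -0.12 without male Egr1cKO replicate 1. The interaction was -0.31 on the log2 scale (SE 0.14, unadjusted *p* = 0.0396, edgeR adjusted *p* = 0.237).

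*Esrrg*, the gene of ERR gamma, had lowest, median and highest levels of 10.8, 13.4 and 18.01 CPM in wild type, 11.2, 12.3 and 18.5 in Nestin-Cre controls, 10.5, 11.6 and 17.97 in floxed controls, and 10.3, 14.8 and 19.6 in Egr1cKO mice. The 4 ranges overlapped, with the highest level in female Egr1cKO replicate 2 and the lowest in male Egr1cKO replicate 3. The log2FC of Egr1cKO was 0.23 against floxed controls (SE 0.16, edgeR adjusted *p* = 0.491) and 0.16 against Nestin-Cre controls. Without both mice that stood apart these values were 0.32 and 0.36. With 1 mouse left out they ran from 0.13 without male Egr1cKO replicate 1 to 0.34 without female floxed control 1, and from 0.06 without male Egr1cKO replicate 1 to 0.26 without female Nestin-Cre control 1.

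*Gper1*, the gene of a membrane receptor coupled to G proteins that responds to estradiol, was counted at 41 to 117 reads per mouse. Its lowest, median and highest levels were 2.16, 2.58 and 4.61 CPM in wild type, 2.93, 3.71 and 4.42 in Nestin-Cre controls, 2.62, 2.89 and 4.98 in floxed controls, and 2.06, 3.08 and 3.83 in Egr1cKO mice. Female floxed controls 2 and 3 were the highest, at 4.98 and 4.92 CPM, and the genotypes overlapped. The log2FC of Egr1cKO was -0.15 against floxed controls (SE 0.21, edgeR adjusted *p* = 0.741) and -0.23 against Nestin-Cre controls, and Nestin-Cre controls had 0.28 against wild type. Against floxed controls the value was -0.04 without female Egr1cKO replicate 2 and -0.24 without male Egr1cKO replicate 3. Against Nestin-Cre controls it was -0.12 without female Egr1cKO replicate 2, and for Nestin-Cre controls against wild type 0.47 without male wild type 1.

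**Figure D3:**
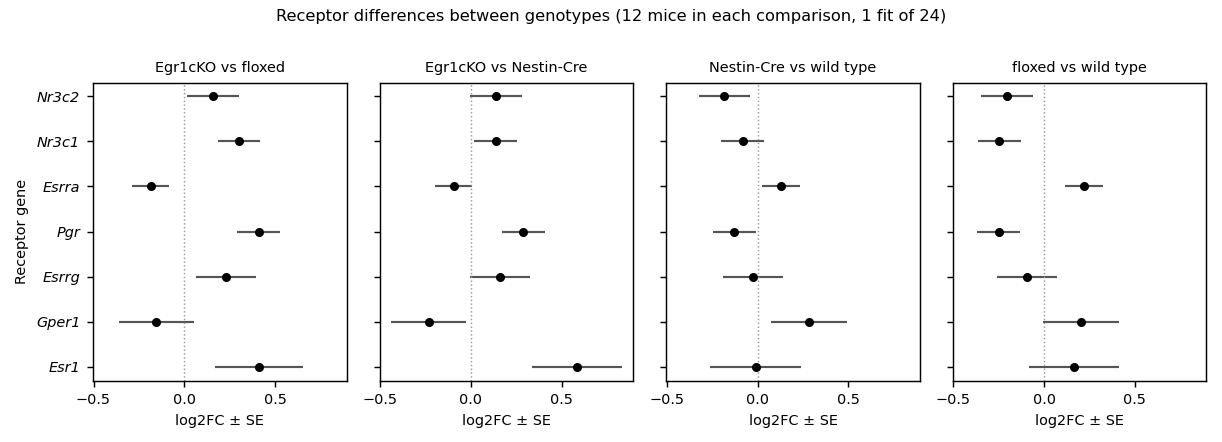
The log2FC of 7 receptor genes in 4 comparisons of genotypes, from 1 edgeR fit over 24 mice, with bars of 1 standard error on each side. Pgr, at 0.41 ± 0.12 for Egr1cKO against floxed controls, lay farthest from 0 in units of its standard error, and no point passed the call (adjusted *p* of at least 0.217).

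The coefficient of variation over the 24 mice includes the differences between genotypes. It was 16.1% for *Nr3c1*, 17.9% for *Nr3c2*, 17.5% for *Pgr*, 13.7% for *Esrra*, 21.5% for *Esrrg*, 25.2% for *Gper1*, 37.3% for *Esr1* and 109.8% for *Esr2*, against a median of 13.6% over protein-coding genes. The values of *Esr1* and *Esr2* include male Egr1cKO replicate 3, the mouse with the highest levels of both, at 6.46 and 1.13 CPM.

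Females and males were compared in the same fit, 12 of each. By edgeR 0 of 7 receptors were called against 0.076% of all genes (14), with 0 receptors and 5.99% of genes at an unadjusted *p* under 0.05, and DESeq2 called 0 receptors and 16 genes. *Nr3c1* had medians of 102 CPM in females and 83.1 CPM in males, with a log2FC of 0.08, or 0.04 without female Nestin-Cre control 1. *Gper1*, with medians of 3.69 and 3.00 CPM, had the farthest log2FC from 0, at 0.16, with 0.25 without male wild type 1 and 0.10 without female floxed control 2. The medians of *Pgr* were 26.7 and 24.8 CPM and those of *Esr1* 2.47 and 2.49 CPM. The lowest edgeR adjusted *p* of any receptor was 0.941. Females and males thus overlapped throughout in the receptor genes.

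Whether the sex difference in Egr1cKO mice departs from its mean in the other genotypes was tested over 8 group means of 3 mice, in which all 8 receptors passed the filter. The call was made for 0 of 8 receptors and 0.00507% of 19742 genes by edgeR, with 1 receptor and 6.09% of genes at an unadjusted *p* under 0.05, and DESeq2 called 0 receptors and 5 genes. The 1 gene called by edgeR was *Muc3a*, named here because the count is small. It was no longer called when 1 of 14 mice was left out: floxed female 2 or 3 or male 1 or 2, Egr1cKO female 1, 2 or 3 or male 2 or 3, wild-type female 1 or male 3, or Nestin-Cre female 2 or 3 or male 1. The receptor at an unadjusted *p* under 0.05 was *Esrra*, with a log2 value of 0.38 (SE 0.15, unadjusted *p* = 0.0214, edgeR adjusted *p* = 0.756). Without female Egr1cKO replicate 1 or male Egr1cKO replicate 1, 0 receptors lay under that *p*. *Esr2* had -1.66 (SE 1.31, edgeR adjusted *p* = 0.914), and 0.90 without the male Egr1cKO replicate 3.

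Some receptor genes were correlated across mice. All 28 pairs were tested as log2(CPM + 0.5) over the 24 mice, and for 12 of them, 5 positive and 7 negative, the permutation *p* was at most 0.05 after adjustment. Another random draw gave 9 pairs, because 3 pairs lay at 0.0493. An unadjusted permutation *p* under 0.05 was reached by 46.4% of the receptor pairs and by 22.1% of 4999 random pairs of protein-coding genes. The pairs *Nr3c1* with *Pgr*, *Nr3c1* with *Esrrg*, and *Pgr* with *Esrrg* had the highest correlations. For each of these, Pearson's r and Spearman's rho both had a permutation *p* of 1e-05, the smallest possible, and 9.33e-05 after adjustment.

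For *Nr3c1* with *Pgr*, r was 0.859 and rho 0.884, and r was 0.868 without the 2 mice farthest from the median of *Nr3c1*. Within the 12 Egr1 wt mice r was 0.911, and within the 12 Egr1 f mice 0.850. *Nr3c1* with *Esrrg* had an r of 0.821 and a rho of 0.835, with 0.832 without the farthest 2 mice, 0.8395 in Egr1 wt and 0.8286 in Egr1 f mice. *Pgr* with *Esrrg* had an r of 0.814 and a rho of 0.818, with 0.8245 without the farthest 2 mice, 0.913 in Egr1 wt and 0.763 in Egr1 f mice. Mice with many *Nr3c1* transcripts thus also had many of *Pgr* and *Esrrg*, in both mouse series.

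The 7 negative pairs were those of *Esrra* with *Nr3c1*, *Pgr* and *Esrrg*, of *Gper1* with *Nr3c1*, *Nr3c2* and *Pgr*, and of *Nr3c2* with *Esr2*. For *Esrra* with *Nr3c1* r was -0.631 (permutation *p* = 0.001, adjusted 0.007) and rho -0.644 (permutation *p* = 0.00105, adjusted 0.00735). That r was -0.636 without the farthest 2 mice, -0.804 in Egr1 wt and -0.501 in Egr1 f mice. With *Pgr* its r was -0.590 (permutation *p* = 0.00224, adjusted 0.0125) and rho -0.581 (permutation *p* = 0.00321, adjusted 0.0158), with -0.463 without the farthest 2 mice, -0.682 in Egr1 wt and -0.563 in Egr1 f mice. *Nr3c1* with *Nr3c2* had an r of 0.503 (permutation *p* = 0.0128, adjusted 0.0448) and a rho of 0.583 (permutation *p* = 0.00338, adjusted 0.0158), with 0.407 without the farthest 2 mice. This pair had an r of 0.156 in Egr1 wt and 0.743 in Egr1 f mice. The former value rests on female Nestin-Cre control 1, without which r was 0.701 in the other 11 Egr1 wt mice, and over all mice it was 0.8 without both mice that stood apart. On residuals from the 8 group means its r was 0.434 with an adjusted permutation *p* of 0.079, so the call was lost.

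*Esrra* with *Esrrg* had an r of -0.467 (permutation *p* = 0.0211, adjusted 0.0493) and a rho of -0.434 (permutation *p* = 0.0358, adjusted 0.0861), with -0.394 without the farthest 2 mice, -0.487 in Egr1 wt and -0.478 in Egr1 f mice. *Gper1* had an r of -0.480 with *Nr3c1* (permutation *p* = 0.0178, adjusted 0.0493), with a rho of -0.379 (permutation *p* = 0.0687, adjusted 0.12), -0.443 without the farthest 2 mice, -0.364 in Egr1 wt and -0.586 in Egr1 f mice. With *Nr3c2* its r was -0.471 (permutation *p* = 0.0199, adjusted 0.0493) and rho -0.383 (permutation *p* = 0.0663, adjusted 0.12), with -0.387 without the farthest 2 mice, -0.476 in Egr1 wt and -0.474 in Egr1 f mice. With *Pgr* it was -0.492 (permutation *p* = 0.015, adjusted 0.0468) and rho -0.444 (permutation *p* = 0.031, adjusted 0.0861), with -0.286 without the farthest 2 mice, -0.270 in Egr1 wt and -0.652 in Egr1 f mice. On residuals from the group means none of these 3 relations of *Gper1* was called, with r of -0.465, -0.324 and -0.416 and adjusted permutation *p* of 0.0581, 0.198 and 0.0935. On the same residuals *Gper1* was called with *Esrrg* (r = -0.503, adjusted permutation *p* = 0.0365) and with *Esrra* (r = 0.483, adjusted permutation *p* = 0.0456).

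*Nr3c2* had an r of -0.515 with *Esr2* (permutation *p* = 0.0101, adjusted 0.0404) and a rho of -0.508 (permutation *p* = 0.0127, adjusted 0.0445), with -0.383 without the 2 mice that stood apart, -0.324 in Egr1 wt and -0.671 in Egr1 f mice. Both estrogen receptor genes had an r of 0.549 with each other (permutation *p* = 0.00755, adjusted 0.0352) and a rho of 0.326 (permutation *p* = 0.124, adjusted 0.176). Without the 2 mice farthest from the median of *Esr1* r was 0.172, so the relation rests on those mice.

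The receptors were also set against the summed markers of 13 cell types and regions, 104 relations in all, of which 10 had an adjusted permutation *p* of at most 0.05. Many other genes followed the same sums. Of the 13545 protein-coding genes 45.3% had an unadjusted permutation *p* under 0.05 with the astrocyte sum, 31.9% with the thalamic, 30.3% with the blood, 24.6% with the excitatory and 14.1% with the hypothalamic and amygdalar sum, beside 6, 4, 4, 2 and 3 of the 8 receptors. Astrocyte markers, 8 of 8 kept and *Slc1a2* the most abundant at 3092 CPM, summed to lowest, median and highest values of 4506, 5598 and 5921 CPM in wild type. The sums were 4316, 5169.6 and 5833 CPM in Nestin-Cre controls, 4396, 4946.2 and 6011 CPM in floxed controls, and 4698, 6162 and 6282 CPM in Egr1cKO mice. The 3 Egr1cKO females and male replicate 1 had the 4 highest sums of the 24 mice, and males 2 and 3 were lower, at 5200.1 and 4698 CPM. Those 4 mice were also the Egr1cKO mice above every floxed control in *Nr3c1* and *Pgr*. The sum weighs *Slc1a2* most, with its mean of 3092 CPM beside a median sum of 5430 CPM, and single markers differed. *Gfap*, *Aqp4*, *Gja1* and *Slc1a3* had their highest levels among these 4 mice. The highest level of *Slc1a2* was in female floxed control 1, and that of *Aldh1l1* in female Nestin-Cre control 1. *Aldoc* and *S100b* were highest in male floxed control 3, whose sum was 4882 CPM.

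With the astrocyte sum, *Nr3c1* had an r of 0.794 (permutation *p* = 3e-05, adjusted 0.00139) and a rho of 0.748 (permutation *p* = 7e-05, adjusted 0.00243), with 0.768 without the farthest 2 mice, 0.714 in Egr1 wt and 0.907 in Egr1 f mice. *Pgr* had an r of 0.773 (permutation *p* = 2e-05, adjusted 0.00139) and a rho of 0.769 (permutation *p* = 5e-05, adjusted 0.00243), with 0.730 without the farthest 2 mice, 0.599 in Egr1 wt and 0.886 in Egr1 f mice. *Esrrg* had an r of 0.780 (permutation *p* = 4e-05, adjusted 0.00139) and a rho of 0.792 (permutation *p* = 1e-05, adjusted 0.00104), with 0.757 without the farthest 2 mice, 0.620 in Egr1 wt and 0.892 in Egr1 f mice. *Nr3c2* had a lower r of 0.564 (permutation *p* = 0.0037, adjusted 0.0385) and a rho of 0.628 (permutation *p* = 0.00125, adjusted 0.026), with 0.555 without the farthest 2 mice, 0.356 in Egr1 wt and 0.758 in Egr1 f mice. The part of astrocyte RNA in these relations was not tested.

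Hypothalamic and amygdalar markers, of which 9 of 12 had a mean below 1 CPM and *Baiap3* was the most abundant at 11.7 CPM, moved with the estrogen receptor genes. *Esr1* had an r of 0.638 with that sum (permutation *p* = 0.0028, adjusted 0.0364) and a rho of 0.439 (permutation *p* = 0.0324, adjusted 0.154), with 0.434 in Egr1 wt and 0.723 in Egr1 f mice. Without the 2 mice farthest from the median sum r was lower, at 0.387. *Esr2* had an r of 0.645 (permutation *p* = 0.00166, adjusted 0.0247) and a rho of 0.505 (permutation *p* = 0.0133, adjusted 0.107), with 0.521 without the farthest 2 mice, 0.587 in Egr1 wt and 0.716 in Egr1 f mice. *Nr3c2* had an r of 0.626 with the excitatory neuron sum (permutation *p* = 0.00137, adjusted 0.0237) and a rho of 0.487 (permutation *p* = 0.0172, adjusted 0.112). In Egr1 wt mice it was 0.737 and in Egr1 f mice 0.574. Without the 2 mice that stood apart, which were also the farthest, it was 0.271, so that relation rests on them.

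The remaining 3 relations were with thalamic and blood markers. *Pgr* had an r of 0.700 with thalamic markers (permutation *p* = 0.00017, adjusted 0.00442) and a rho of 0.697 (permutation *p* = 0.00021, adjusted 0.00546), with 0.667 without the farthest 2 mice, 0.780 in Egr1 wt and 0.700 in Egr1 f mice. *Esrrg* had an r of 0.629 with them (permutation *p* = 0.00098, adjusted 0.0204) and a rho of 0.556 (permutation *p* = 0.00538, adjusted 0.0699), with 0.559 without the farthest 2 mice, 0.767 in Egr1 wt and 0.537 in Egr1 f mice. With blood markers *Esrrg* had an r of -0.571 (permutation *p* = 0.00316, adjusted 0.0365) and a rho of -0.577 (permutation *p* = 0.0038, adjusted 0.0643), with -0.386 without the farthest 2 mice. Within Egr1 f mice r was -0.747 and within Egr1 wt mice -0.14, and the difference between them was not tested. On residuals from the group means the relation was not called (r = -0.515, adjusted permutation *p* = 0.0542). Thalamic markers, 8 of 8 kept and *Rora* the most abundant at 36.8 CPM, summed to 114 to 175 CPM. Blood markers, 5 of 5 kept and *Hbb-bs* the most abundant at 31.4 CPM, summed to 29.2 to 95.9 CPM.

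A further measure was added after the data were seen. For each mouse, the deviation of 13545 protein-coding genes from the median mouse in log2(CPM + 0.5) was regressed on log2 exon length. A positive slope means that long transcripts were relatively abundant in that library. Lowest, median and highest slopes were -0.02, 0.02 and 0.05 in wild type, -0.11, -0.05 and 0.10 in Nestin-Cre controls, -0.12, -0.06 and 0.04 in floxed controls, and -0.03, 0.06 and 0.08 in Egr1cKO mice. Male Nestin-Cre control 2, without which many more genes were called, had the highest slope of all.

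Of the 8 receptors, 6 had an adjusted permutation *p* of at most 0.05 with this slope, and the same 6 an unadjusted one under 0.05. An unadjusted permutation *p* under 0.05 (10000 draws) was also reached by 49.0% of the 13545 genes. *Nr3c1* had an r of 0.786 (permutation *p* = 1e-05, adjusted 8e-05) and a rho of 0.791 (permutation *p* = 2e-05, adjusted 0.00012), with 0.814 without the farthest 2 mice, 0.808 in Egr1 wt and 0.794 in Egr1 f mice. *Pgr* had an r of 0.788 (permutation *p* = 2e-05, adjusted 8e-05) and a rho of 0.796 (permutation *p* = 3e-05, adjusted 0.00012), with 0.773 without the farthest 2 mice, 0.732 in Egr1 wt and 0.828 in Egr1 f mice. *Esrrg* had an r of 0.733 and a rho of 0.735 (permutation *p* = 5e-05 and adjusted 0.000133 for each), with 0.761 without the farthest 2 mice, 0.634 in Egr1 wt and 0.7998 in Egr1 f mice. *Nr3c2* had an r of 0.570 (permutation *p* = 0.0039, adjusted 0.00624) and a rho of 0.695 (permutation *p* = 0.00035, adjusted 0.0007), with 0.574 without the farthest 2 mice, 0.445 in Egr1 wt and 0.677 in Egr1 f mice. *Esrra* had an r of -0.708 (permutation *p* = 0.0002, adjusted 0.0004) and a rho of -0.640 (permutation *p* = 0.00105, adjusted 0.00168), with -0.605 without the farthest 2 mice, -0.763 in Egr1 wt and -0.699 in Egr1 f mice. *Gper1* had an r of -0.452 (permutation *p* = 0.0274, adjusted 0.0365) and a rho of -0.473 (permutation *p* = 0.0208, adjusted 0.0277), with -0.556 without the farthest 2 mice, -0.432 in Egr1 wt and -0.469 in Egr1 f mice. On residuals from the group means *Gper1* was not called (r = -0.424, adjusted permutation *p* = 0.0528). The part of this slope in the differences between genotypes and in the correlations among receptors was not tested.

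**Figure D4:**
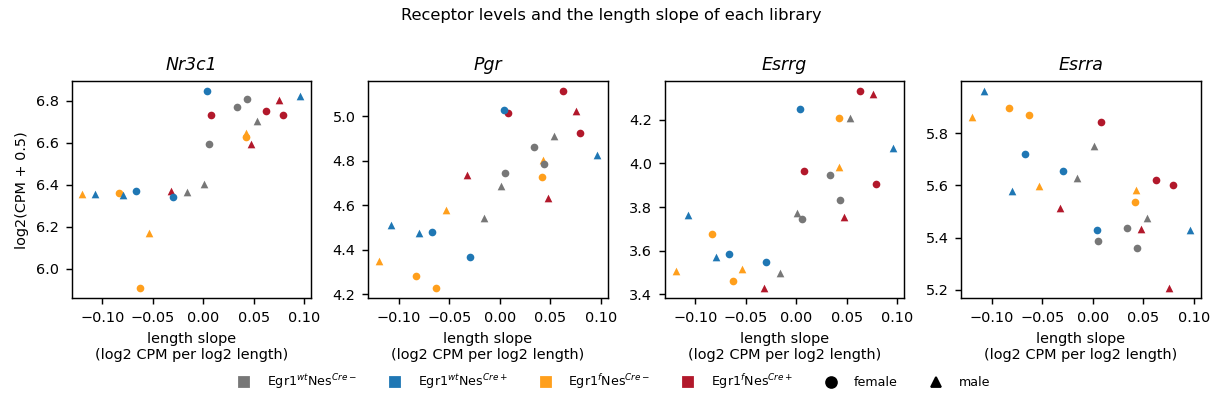
Level of Nr3c1, Pgr, Esrrg and Esrra as log2(CPM + 0.5) against the slope of each library on log2 exon length, 1 point per mouse, colored by genotype, with circles for females and triangles for males. The level of Nr3c1 went up with the slope (r = 0.786, n = 24) and that of Esrra went down (r = -0.708).

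The protein-coding genes most like each receptor across the 24 mice are given as a description, by Pearson's r among 13545 genes, for the 7 receptors that passed the filter and not for *Esr2*. For *Nr3c1* they were *Tlk1* (0.915), *Zfp518b* (0.902) and *Gpam* (0.887). *Nr3c2* was nearest to *Nckap1* (0.910), *Fut8* (0.909) and *Epha4* (0.907), and *Pgr* to *Fat1* (0.928), *Xylt1* (0.913) and *Hecw2* (0.904). *Esr1* had lower values, with *Dner* (0.770), *Wdr6* (0.753) and *Arhgap6* (0.747). *Esrra* was nearest to *Atp5g1* (0.874), a subunit of mitochondrial ATP synthase, *Rps19bp1* (0.870) and *Taf10* (0.868). *Esrrg* was nearest to *Vezf1* (0.883), *Kcna2* (0.878) and *Lmbrd1* (0.871), and *Gper1* to *R3hdm1* (0.784), *Recql4* (0.780) and *Calr* (0.729).

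The wider pathway was followed through lists of related receptors, chaperones, coregulators, steroid enzymes and responsive genes. Relatives of the receptors, the androgen receptor, ERR beta and membrane progestin receptors, were all measured, 9 of 9. The most abundant per length was *Pgrmc1*, a membrane protein that binds progesterone and heme, at 125.1 RPKM. In Egr1cKO mice edgeR and DESeq2 both called 0 of 9 against floxed and 0 of 9 against Nestin-Cre controls, with 1 and 2 at an unadjusted *p* under 0.05 by edgeR (16.1% and 15.7% of all genes). The median log2FC was 0.04 and 0.11, against -0.00 and -0.01 over all genes.

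Chaperones and cochaperones, which hold unliganded receptors, were led per length by *Hsp90ab1*, a cytosolic HSP90, at 505 RPKM. In Egr1cKO mice edgeR and DESeq2 both called 0 of 14 against floxed and 0 of 14 against Nestin-Cre controls, with 2 and 2 at an unadjusted *p* under 0.05 (16.1% and 15.7% of all genes). The median log2FC was -0.07 and -0.04. In floxed controls against wild type all 14 had a positive log2FC, with a median of 0.13, 2 at an unadjusted *p* under 0.05 (all genes: median 0.00, 6.97%) and 0 called by edgeR or DESeq2. With the length slope, whose median was -0.06 in floxed controls and 0.02 in wild type, the chaperones had a median r of -0.438 (all genes: -0.0264). An unadjusted permutation *p* under 0.05 with it was reached by 8 of 14 (49.0% of all genes). The part of the slope in this change was not tested. In the interaction edgeR called 0 of 14, with 4 at an unadjusted *p* under 0.05 (19.2% of all genes), and DESeq2 called 1, *Cdc37*, with a log2 value of -0.33.

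Coregulators are the coactivators and corepressors that receptors recruit. Against floxed controls 15 of 16 had a positive log2FC in Egr1cKO mice, with a median of 0.19, and 8 had an unadjusted *p* under 0.05, but edgeR and DESeq2 called 0 (all genes: median -0.00, 16.1% at that *p*). Against Nestin-Cre controls 13 of 16 were positive, the median was 0.20, 6 had an unadjusted *p* under 0.05, and edgeR and DESeq2 called 0 (all genes: median -0.01, 15.7%). These comparisons share their controls with the following ones. In floxed controls against wild type 2 of 16 were positive, with a median of -0.13 and 0 at an unadjusted *p* under 0.05 (all genes: median 0.00, 6.97%). In Nestin-Cre controls against wild type 3 of 16 were positive, with a median of -0.13 and 2 at that *p* (all genes: median 0.01, 6.06%). Neither edgeR nor DESeq2 called any of the 16 in either comparison. All 16 coregulators had an unadjusted permutation *p* under 0.05 with the length slope, as had 49.0% of the 13545 protein-coding genes. Of the 16, 15 had a positive r, and the median r was 0.76 against -0.0264 over all genes. Their median exon length was 8664.5 bases against 4659 over all genes. The part of the slope in their differences was not tested. Without a filter on low counts edgeR called 6 of the coregulators against floxed and 5 against Nestin-Cre controls, where it called 803 and 794 of all genes. In the interaction 15 of 16 were positive with a median of 0.30, 10 had an unadjusted *p* under 0.05 (19.2% of all genes), edgeR called 0 and DESeq2 called 2, *Ncor1* (log2 value 0.47) and *Ep300* (0.54).

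Of the enzymes and carriers of steroid metabolism 12 of 19 were tested, with *Hsd17b12* the most abundant per length at 23.9 RPKM. Neither edgeR nor DESeq2 called any of the 12 in the 7 comparisons (0 of 12 in each), and 0 had an unadjusted *p* under 0.05 (all genes: 0% to 0.076% called by edgeR, 5.99% to 19.2% at that *p*). The median log2FC of Egr1cKO was -0.02 against floxed and -0.05 against Nestin-Cre controls.

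Genes that respond to glucocorticoids, 20 of 20 tested, were led per length by the metallothionein gene *Mt1* at 187 RPKM. Against floxed controls 7 of 20 had a positive log2FC in Egr1cKO mice, with a median of -0.12, 2 at an unadjusted *p* under 0.05 (16.1% of all genes) and 0 called by edgeR or DESeq2. Against Nestin-Cre controls 18 of 20 were positive with a median of 0.33 and 8 at an unadjusted *p* under 0.05 (all genes: median -0.01, 15.7%), where edgeR called 0 and DESeq2 called 1, the clock gene *Per1* (log2FC 0.43). Nestin-Cre controls had 2 of 20 positive against wild type, with a median of -0.25, 5 at an unadjusted *p* under 0.05 (6.06% of all genes) and 0 called by edgeR or DESeq2. Floxed controls had 15 of 20 positive against wild type, with a median of 0.16, 1 at an unadjusted *p* under 0.05 (6.97% of all genes) and 0 called by either. The list holds *Plin4* and *Xdh*, which the study reported as higher in female floxed controls than in wild type. That report used the same mice, so the counts of this list are not independent of it. Females had 19 of 20 positive against males, with a median of 0.09, 2 at an unadjusted *p* under 0.05 (5.99% of all genes) and 0 called by either. In the interaction edgeR called 0 of 20, with 3 at an unadjusted *p* under 0.05 (19.2% of all genes), and DESeq2 called 1, again *Per1*, with a log2 value of 0.48. The sex difference in Egr1cKO mice exceeded its mean elsewhere for 20 of 20 of these genes, with a median log2 value of 0.49 and 13 at an unadjusted *p* under 0.05 (all genes: median -0.01, 6.09%), and 0 called by edgeR or DESeq2. There 0 of 12 choroid plexus (median -1.55), 0 of 5 blood (-0.67) and 3 of 9 hypothalamic and amygdalar markers (-1.64) were positive. Positive too were 11 of 12 excitatory (0.15) and 8 of 8 astrocyte markers (0.11). The part of other cells and regions in this change was not tested. *Nr3c1* itself had 0.09 in that comparison and *Nr3c2* 0.12, and both were negative without male Egr1cKO replicate 3 (-0.00 and -0.13). Without a filter on low counts edgeR called 5 of the 20 glucocorticoid-responsive genes against floxed controls, 10 against Nestin-Cre controls, 4 in Nestin-Cre controls against wild type and 5 for the change of the sex difference. That setting called 803, 794, 175 and 146 of all genes in these comparisons.

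Mitochondrial genes linked to estrogen-related receptors, 17 of 18 tested, were led per length by *Atp5b*, a subunit of ATP synthase, at 219.6 RPKM. In Egr1cKO mice edgeR and DESeq2 called 0 of 17 against floxed and 0 of 17 against Nestin-Cre controls, with 3 and 2 at an unadjusted *p* under 0.05 (16.1% and 15.7% of all genes) and a median log2FC of -0.07 and -0.04. Genes that respond to estrogen or progestin, 12 of 16 tested, were led by the lysosomal protease gene *Ctsd* at 49.0 RPKM. Of these, edgeR and DESeq2 called 0 of 12 against floxed and 0 of 12 against Nestin-Cre controls, with 1 and 0 at an unadjusted *p* under 0.05 (16.1% and 15.7% of all genes) and a median log2FC of -0.03 and 0.17. In the interaction edgeR called 0 of 12, with 3 at an unadjusted *p* under 0.05 (19.2% of all genes), and DESeq2 called 1, *Ctsd*, with a log2 value of -0.30. *Fkbp5* belongs to the chaperones and the glucocorticoid list, *Ppargc1a* to the coregulators and the mitochondrial list, and *Pdk4* to the glucocorticoid and the mitochondrial list.

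Among the marker lists edgeR made 1 call, of *Aqp4*, the water channel of astrocyte endfeet, which rose in Egr1cKO mice against floxed controls. Its lowest, median and highest levels were 101, 133 and 168 CPM in floxed controls and 197, 244 and 265 CPM in Egr1cKO mice, without overlap. They were 148, 209 and 227 CPM in Nestin-Cre controls, which overlapped the Egr1cKO mice, and 124, 148 and 180 CPM in wild type. The log2FC was 0.82 (SE 0.11, edgeR adjusted *p* = 0.000608, up to 0.00776 over the alternatives). In that comparison an unadjusted *p* under 0.05 was reached by 16.1% of all genes, and by 3 of 8 astrocyte, 4 of 9 oligodendrocyte, 2 of 12 excitatory, 3 of 10 interneuron, 3 of 8 microglial and 0 of 8 endothelial markers. It was reached by 0 of 12 choroid plexus, 4 of 10 meningeal, 1 of 5 blood, 1 of 8 hypothalamic and amygdalar, 2 of 8 thalamic, 0 of 10 striatal and 0 of 2 pituitary markers, and edgeR called 0 in each of these lists. DESeq2 called *Aqp4*, the astrocyte gap junction gene *Gja1* (log2FC 0.35) and the myelin gene *Mobp* (log2FC -0.52) in that comparison. All 9 oligodendrocyte markers had a negative log2FC in Egr1cKO mice against floxed controls, as they had against Nestin-Cre controls, where 6 of 9 had an unadjusted *p* under 0.05 (15.7% of all genes) and edgeR and DESeq2 called 0. In floxed controls 8 of 9 and in Nestin-Cre controls 9 of 9 were positive against wild type. The summed oligodendrocyte markers had medians of 4337 CPM in wild type, 5255 in Nestin-Cre controls, 5312 in floxed controls and 4436 in Egr1cKO mice. The choroid plexus sums had medians of 172 CPM in wild type and 200 CPM in Nestin-Cre controls, where female 1 was at 2845 CPM and the other 5 mice at 182 to 503 CPM. With that mouse 9 of 12 choroid markers had an unadjusted *p* under 0.05 in this comparison (6.06% of all genes), edgeR called 0, and DESeq2 called 1, *Ttr* (log2FC 5.60). In floxed controls against wild type 12 of 12 were positive with a median log2FC of 1.77, where male floxed controls 2 and 3 had the high sums, 3 had an unadjusted *p* under 0.05 (6.97% of all genes) and edgeR and DESeq2 called 0. DESeq2 also called the hypothalamic *Avp* in floxed controls against wild type (log2FC 3.48), which was highest in male floxed control 2, at 6.79 CPM against a median of 0.506 CPM over the 24 mice. In the interaction it called 4 markers, *Wfs1* of excitatory neurons (log2 value 0.57), *Mobp* (-0.69) and *Mbp* (-0.61) of oligodendrocytes, and *Ttr* (-6.08), where edgeR called 0 of these lists.

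Promoter windows of the receptors were searched for the letters that EGR1, estrogen-related receptors and steroid receptors bind. RefSeq windows on GRCm38.p6, from 250 bases before to 50 bases after a transcript start, matched 7 of the receptors with 11 windows. *Nr3c1* had no window, so the promoter of the glucocorticoid receptor gene was not searched for any of these motifs. Both strands were searched. The EGR1 letters GCGTGGGCG and GCGGGGGCG and the estrogen-related receptor letters TNAAGGTCA were searched first and were in none of the 11 windows, and in 0.612%, 2.91% and 1.28% of all 32851 windows of 300 bases. Then 4 shorter or looser motifs were added. GCGNGGGCG, which contains both EGR1 motifs, was in 5.55% of all windows, AGGTCA, which lies within TNAAGGTCA, in 16.3%, and AGAACA in 19.0%, and none of these was in a receptor window. The GC box GGGCGG was in 6 of 11 receptor windows, of *Esrra*, *Esrrg*, *Gper1*, *Nr3c2* and *Pgr*, and in 35.7% of all windows. A match is a description of the letters in a window.

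The windows of *Pgr* (chr9:8899583-8899882), *Nr3c2* (chr8:76902080-76902379) and *Esrrg* (chr1:187651991-187652290), all on the plus strand, are shown because those 3 genes had a positive r with *Nr3c1* at an adjusted permutation *p* of at most 0.05 over the 24 mice. Capitals mark the GC box GGGCGG or, on the opposite strand, its reverse complement. *Pgr* holds 1 box, 47 bases before the start, *Nr3c2* holds 3, the first 168 bases before the start, and *Esrrg* holds 2, the first 199 bases before the start. *Esrrg* has 4 windows, and the one with most boxes is shown, while 2 others hold 0 and another holds 1.
Pgr: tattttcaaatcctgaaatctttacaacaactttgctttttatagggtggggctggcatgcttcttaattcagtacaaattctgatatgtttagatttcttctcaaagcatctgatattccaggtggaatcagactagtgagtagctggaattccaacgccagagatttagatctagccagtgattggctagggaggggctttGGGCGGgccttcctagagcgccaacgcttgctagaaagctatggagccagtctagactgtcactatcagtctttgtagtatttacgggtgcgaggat
Nr3c2: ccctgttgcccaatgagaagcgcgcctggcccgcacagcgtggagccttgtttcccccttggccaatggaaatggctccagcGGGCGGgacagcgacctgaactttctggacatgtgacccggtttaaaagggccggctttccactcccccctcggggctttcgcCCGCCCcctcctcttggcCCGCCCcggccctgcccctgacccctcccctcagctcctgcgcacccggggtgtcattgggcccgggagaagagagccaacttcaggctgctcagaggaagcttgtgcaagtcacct
Esrrg: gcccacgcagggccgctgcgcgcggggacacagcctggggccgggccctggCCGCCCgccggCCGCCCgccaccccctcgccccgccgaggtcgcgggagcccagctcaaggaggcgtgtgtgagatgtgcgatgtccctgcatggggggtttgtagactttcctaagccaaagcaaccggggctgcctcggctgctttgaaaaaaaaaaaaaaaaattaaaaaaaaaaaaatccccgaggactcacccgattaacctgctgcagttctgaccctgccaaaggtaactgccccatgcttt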

How the data were processed

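Hippocampal RNA of 24 mice was sequenced, and the labels gave genotype, sex and replicate. According to the submitters' notes, the authors trimmed reads with Trim Galore 3.8.2 and mapped them with STAR 2.7.9 to GRCm38, and the study's methods name other versions of both. The deposited values are raw counts per gene, and the annotation used for counting was not given in the sources used here. All columns of the table were used, and 36493 of 36605 genes had a symbol in GENCODE M21. Replicates of a group differed by more than sampling noise.

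Levels are CPM with TMM factors, and RPKM per kilobase of merged exon. Tests used edgeR 4.0.16 in R 4.3.3, with filterByExpr (minimum count 10) and the quasi-likelihood F test on 4 genotype means plus sex, adjusted by Benjamini-Hochberg over all genes. The SE was taken from the log2FC and F, as their quotient after the square root of F. DESeq2 1.42.0 served as another tool. Permutation tests used 100000 draws, two-sided, in Python 3.11.15 with numpy 2.4.6 and pandas 2.3.3, after adding 0.5 CPM or 0.01 RPKM before taking logs. Figures used matplotlib 3.10.9. The fits were tested on simulated data.

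Alternatives were DESeq2, edgeR with the size factors of DESeq2, a fit of unfiltered genes, calls without an FC minimum, the replicate number as a block, fits of the compared genotypes alone, each mouse left out, other lengths and pseudocounts, and residuals from group means. Leaving out both mice that stood apart, another random draw, the length slope, the shares of other genes and pairs beside the correlations (10000 draws), and 4 motifs were added after the data were seen. Named are the members, *Egr1*, genes of the lists that were called or most abundant, and the 3 nearest genes of each member but *Esr2*. The most abundant coregulator is not reported here. *Muc3a* and the list genes called by DESeq2 were named after their values were seen. The other astrocyte markers are named for the mouse with their highest level, and *Plin4* and *Xdh* because the study reported them. Of the listed genes 4, *Sts*, *Wisp2*, *Tff1* and *Lhb*, were not found by symbol. The members and lists were chosen with earlier results of these data known.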

Additional observations from a re-analysis of the deposited data

Results flagged for a closer look

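Each receptor in each genotype was examined for a mouse far from the other 5, 32 groups of 6 in all, by the gap to its neighbor over the whole range (Dixon's test). Chance flags about 1 in 20 groups, and 3 stood out. *Esr1* was highest in Egr1cKO male 3, at 6.46 CPM (gap 0.67 of the range), the mouse with the highest hypothalamic and amygdalar markers. *Esr2* was highest in wild-type female 3, at 0.573 CPM (gap 0.636), and in Nestin-Cre control female 2, at 0.894 CPM (gap 0.694).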

How the results depend on the processing

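Of 1528 alternative fits of 50 receptor changes, 1494 kept their direction and their side of the threshold, 29 changed sign (13 changes) and 5 passed the threshold (4 changes). As no receptor was called in the main fit, a result was kept whenever its sign stayed and no call arose. The setting without an FC minimum repeated the main fit, and most others left out 1 mouse, often of a genotype outside the comparison. The share kept is therefore no measure of how firm the changes are. Without a filter on low counts edgeR called 2 receptors against floxed controls and 2 in the interaction, with all genes called at 803 against floxed controls, 794 against Nestin-Cre controls, 175 for Nestin-Cre controls and 82 for floxed controls against wild type, 1173 in the interaction, 79 between sexes and 146 for the change of the sex difference. DESeq2 called 50, 34, 8, 5 and 306 genes in the first 5 of these and 5 in the last. Without both mice that stood apart the counts were 81 against floxed controls, 8 against Nestin-Cre controls and 0 for the change of the sex difference. Leaving out 1 mouse gave 3 to 33, 1 to 972, 0 to 2 and, for the interaction, 1 to 1503 genes, 0 to 1 for the change of the sex difference, and 0 to 1 receptors in the interaction. The cause was not tested.

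With the replicate number as a block, the change of the sex difference had 0 called genes, *Esr1* for Nestin-Cre controls against wild type had a log2FC of 0.0223, and no receptor was called. The numbers do not pair the mice: 84 same-number pairs had an r of -0.215 to 0.32, and 8 of 24 mice correlated best with their own number.

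The sign of *Esr1* for Nestin-Cre controls against wild type also changed with only both genotypes fitted (0.00161) and without both mice that stood apart (0.0741). Without those mice it changed between sexes for *Esr1* (0.0771), *Pgr* (-0.0225) and *Esrrg* (-0.0149), and for the change of the sex difference for *Nr3c2* (-0.20), *Esr1* (0.14) and *Esr2* (0.78). Leaving out 1 mouse gave, for Nestin-Cre controls, -0.15 to 0.16 for *Esr1* and -0.12 to 0.0755 for *Esrrg*, and for floxed controls -0.21 to 0.0043 for *Esrrg*. Between sexes it gave -0.10 to 0.00252 for *Nr3c2*, -0.17 to 0.0415 for *Esr1* and -0.00759 to 0.067 for *Esrra*. For the change of the sex difference it gave -0.00371 to 0.21 for *Nr3c1*, -0.13 to 0.33 for *Nr3c2*, -0.66 to 0.17 for *Esr1*, -3.14 to 0.90 for *Esr2* and -0.0152 to 0.46 for *Esrrg*. All these changes lay on the same side of the threshold, below a call.

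Per longest transcript, *Nr3c1* minus *Esrra* was -0.43 in log2 RPKM. Residuals from the 8 group means gave 17 relations of receptors with marker sums in place of 10. *Esr2* had 139 reads over the 24 mice.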
